A study of Rattus norvegicus with 18 samples.

Results

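The 10 genes described here are the neutrophil granule and precursor genes S100a8, S100a9, Mpo, Elane, Prtn3, Camp, Ltf, Lcn2, Ngp and Csf3r. They were chosen by gene symbol and not by a cut on their measured levels, though earlier results of these data were known. Each was present once in both expression tables among 30643 genes. The libraries came from male wild-type Sprague Dawley rats that were 12 weeks old at knee surgery. In the osteoarthritis (OA) groups the joint was opened and the anterior cruciate ligament and the medial meniscotibial ligament were cut, whereas the sham groups had the joint opened with nothing cut. Synovium was taken at 4 weeks (5 OA and 5 sham libraries, each from a pool of 4 rats) or at 12 weeks (4 OA and 4 sham libraries, each from a pool of 3 rats), and cells were retained on CD11b/c magnetic beads, so every library is a bulk measure of sorted cells from several animals.

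Neutrophils are short-lived granulocytes that mature in bone marrow and carry CD11b, so a bead against CD11b/c retains them along with monocytes and macrophages. Their granules are filled in order during maturation. The proteases and peroxidase of the primary granules (Mpo, Elane, Prtn3) are transcribed in the promyelocyte, and the proteins of the secondary granules (Camp, Ltf, Lcn2, Ngp) in the later myelocyte and metamyelocyte. S100a8 and S100a9 form calprotectin, the abundant calcium-binding protein of the neutrophil cytosol, and Csf3r is the receptor for granulocyte colony-stimulating factor, the cytokine that drives neutrophil production.

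Levels are normalized reads, that is, reads per gene divided by a size factor for each library, which the authors computed separately for each time point. Levels are therefore compared within a time point, and a level of 1 gene is not compared with that of another gene, since reads were not scaled to transcript length. The libraries held 4662344 to 17235069 reads at 4 weeks and 10976114 to 18080503 reads at 12 weeks. Sham replicate 3 at 4 weeks was the shallowest, and genes with a mean under 10 normalized reads took 1.02% of its reads against 0.142% to 0.294% in the other 4-week libraries. Of the macrophage markers, 13 of 14 were tested at each time point, with a summed level of 91490 to 141863 normalized reads at 4 weeks and 130466 to 192975 at 12 weeks. Fibroblast markers, which a CD11b/c bead would not select, were also present in every library, with a summed level of 51314 to 117251 normalized reads at 4 weeks and 62927 to 117801 at 12 weeks. At an unadjusted limma p under 0.05 these differed between OA and sham for 4 of 11 genes at 4 weeks (7.92% of all genes) and 9 of 11 at 12 weeks (12.4% of all genes), 8 of the latter higher in OA. Of these genes limma and edgeR called 0 and DESeq2 called 1 at each time point, and their part in the levels of the neutrophil genes was not tested. In bulk libraries of this kind fewer neutrophils and less RNA per neutrophil cannot be told apart.

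Upstream sequence is shown for the 4 members whose window in the RefSeq promoter table (GRCr8) begins at the outermost start of the gene. They are shown because 3 of them (S100a9, Camp and Ngp) shared 1 profile across libraries, described in the paragraphs that follow. Ltf, measured at low counts, did not share it. RefSeq gave a promoter entry for 8 of the 10 members. Each line gives the 250 bases before the start, in the direction of transcription, with capitals marking matches to TTNNGNAA, a C/EBP-type half-site pair, or to GAGGAA, a PU.1-type core, searched on both strands. C/EBP factors and PU.1 are transcription factors of granulocyte development. S100a9 lies at chr2:178490623-178490872 (minus strand), Camp at chr8:118721999-118722248 (minus strand), Ngp at chr8:119272355-119272604 (plus strand) and Ltf at chr8:119878094-119878343 (plus strand).
S100a9: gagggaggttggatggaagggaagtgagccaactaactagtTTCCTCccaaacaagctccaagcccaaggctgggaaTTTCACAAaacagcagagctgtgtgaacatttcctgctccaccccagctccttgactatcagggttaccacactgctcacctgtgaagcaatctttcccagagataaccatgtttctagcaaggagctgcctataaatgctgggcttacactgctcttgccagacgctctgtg
Camp: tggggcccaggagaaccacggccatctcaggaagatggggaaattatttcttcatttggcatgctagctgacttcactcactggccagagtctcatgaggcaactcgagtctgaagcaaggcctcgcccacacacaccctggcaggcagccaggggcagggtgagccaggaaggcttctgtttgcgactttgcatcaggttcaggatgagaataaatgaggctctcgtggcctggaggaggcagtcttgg
Ngp: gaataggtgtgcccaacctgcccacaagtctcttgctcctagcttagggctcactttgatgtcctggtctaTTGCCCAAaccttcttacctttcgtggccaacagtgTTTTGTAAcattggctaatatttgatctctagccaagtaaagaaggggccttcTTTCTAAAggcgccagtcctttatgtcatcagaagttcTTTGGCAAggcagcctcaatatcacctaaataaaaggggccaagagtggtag
Ltf: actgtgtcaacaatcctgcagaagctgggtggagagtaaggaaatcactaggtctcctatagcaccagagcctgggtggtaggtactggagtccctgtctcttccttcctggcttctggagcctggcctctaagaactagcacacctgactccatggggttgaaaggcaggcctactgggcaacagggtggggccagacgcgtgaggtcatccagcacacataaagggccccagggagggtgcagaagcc
The Ngp window held 4 matches to the C/EBP-type motif and none to the PU.1 core, the S100a9 window held 1 of each, and those of Camp and Ltf held neither. Of 33469 rat promoters cut to the same length, 37.2% held the C/EBP-type motif and 23.3% the PU.1 core. A match is a string of letters and not a measured binding site.

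None of the neutrophil genes separated OA from sham synovium at 4 weeks. S100a8 stood at 2488, 168, 3108, 115 and 158 normalized reads in OA replicates 1 to 5 and at 848, 255, 420.1, 879 and 374 in sham replicates 1 to 5. OA replicates 1 and 3 lay above every sham library and OA replicates 2, 4 and 5 below every sham library, so the sham group sat inside the range of the OA group. OA libraries averaged 1207 ± 1469 and sham libraries 555 ± 288 (SD, n = 5 each), but on the log2 scale the difference was -0.07 with a 95% interval of -2.01 to 1.87 (limma, adjusted p = 0.987), and the 2-sided exact permutation test gave p = 0.968. The sign depended on the method: DESeq2, which compares means of reads, gave a log2 fold change of 1.10 (adjusted p = 0.816).

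S100a9, the partner of S100a8, was also highest in OA replicates 1 and 3, with 4070.4, 267, 4849, 235 and 283 normalized reads in OA and 1619, 396, 664, 1514 and 628 in sham. Its log2 fold change was -0.04 (95% interval -1.93 to 1.85, limma adjusted p = 0.993). The ratio of S100a8 to S100a9 reads spanned 0.488 to 0.645 over the 10 libraries, a 1.32-fold range, while S100a8 itself spanned 27.1-fold and S100a9 20.6-fold.

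Of the secondary granule genes, Camp, Ngp and Lcn2 overlapped between OA and sham at 4 weeks. Camp, which encodes the cathelicidin antimicrobial peptide, measured 1095, 47.6, 1482, 33.2 and 44.5 normalized reads in OA and 370.2, 75.6, 95.2, 423 and 105 in sham (log2 fold change 0.00032, 95% interval -2.32 to 2.32, limma adjusted p = 1.00). Ngp, a neutrophil granule protein related to the cathelicidins, measured 2038, 90.5, 2271, 69.8 and 113 in OA and 502, 144, 97.5, 577 and 267 in sham (0.32, -1.84 to 2.49, adjusted p = 0.934). Lcn2, lipocalin 2, which binds bacterial siderophores, measured 737, 159, 1021, 155 and 226 in OA and 362, 204, 204, 370.4 and 239 in sham (0.33, -0.74 to 1.40, adjusted p = 0.862). OA replicates 1 and 3 were again the highest libraries for all 3 genes.

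Ltf, lactoferrin, an iron-binding secondary granule protein, was low, and OA replicate 3 was not among its highest libraries. It stood at 6.93, 1.91, 4.12, 6.65 and 2.17 normalized reads in OA and at 4.60, 10.7, 34.8, 15.2 and 4.60 in sham at 4 weeks, from 2 to 15 reads per library. Its highest level was in sham replicate 3, the shallowest library. OA libraries averaged 4.35 ± 2.38 and sham libraries 14.0 ± 12.5 (SD, n = 5 each), and the groups overlapped (log2 difference -1.24, exact permutation p = 0.0635). Without sham replicate 3 the difference was -0.84 (exact permutation p = 0.127), and without sham replicate 1 or sham replicate 5 it was -1.51 (exact permutation p = 0.0476 in each case). Ltf was under the mean of 10 normalized reads required for the fit across genes. In a fit of every gene with a read its unadjusted p was 0.0428, where 8.7% of all genes in that fit had one under 0.05, and its adjusted p was 0.571 (limma). Of the genes under 0.05 in that fit, 1917 were lower in OA, like Ltf, and 662 higher.

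Of the primary granule genes, Mpo, which encodes myeloperoxidase, measured 260.0, 3.81, 175, 3.32 and 5.42 normalized reads in OA and 104, 16.5, 78.9, 63.3 and 9.21 in sham at 4 weeks. Its range of 78.2-fold between libraries was wider than that of any other tested member (log2 fold change -0.79, 95% interval -3.41 to 1.82, limma adjusted p = 0.863). The low end of that range rests on 4, 4 and 5 reads in OA replicates 2, 4 and 5, near the level of 3 reads. Elane, neutrophil elastase, had 1 to 39 reads per library, with 27.0, 1.91, 12.4, 0.831 and 1.08 in OA and 9.21, 5.82, 18.6, 15.2 and 3.68 in sham (exact permutation p = 0.317). Prtn3, proteinase 3, did not exceed 7.55 normalized reads and was at 0 in 2 OA and 2 sham libraries (exact permutation p = 1). The OA libraries with the most Mpo, replicates 1 and 3, were also those with the most Elane and Prtn3.

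Csf3r varied less between libraries. It stood at 697, 531, 545, 508 and 442 normalized reads in OA and at 675, 402, 288, 403 and 399 in sham at 4 weeks, a 2.42-fold range over all 10 libraries. The log2 fold change was 0.37 with a standard error of 0.19 and a 95% interval of -0.04 to 0.78 (limma, adjusted p = 0.648; exact permutation p = 0.127). Without sham replicate 1, the highest sham library, every OA library lay above every sham library and the difference was 0.54 (exact permutation p = 0.0159, a limit set by 5 against 4 libraries), and over all 10 single omissions the exact permutation p ran from 0.0159 to 0.254.

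**Figure D1:**
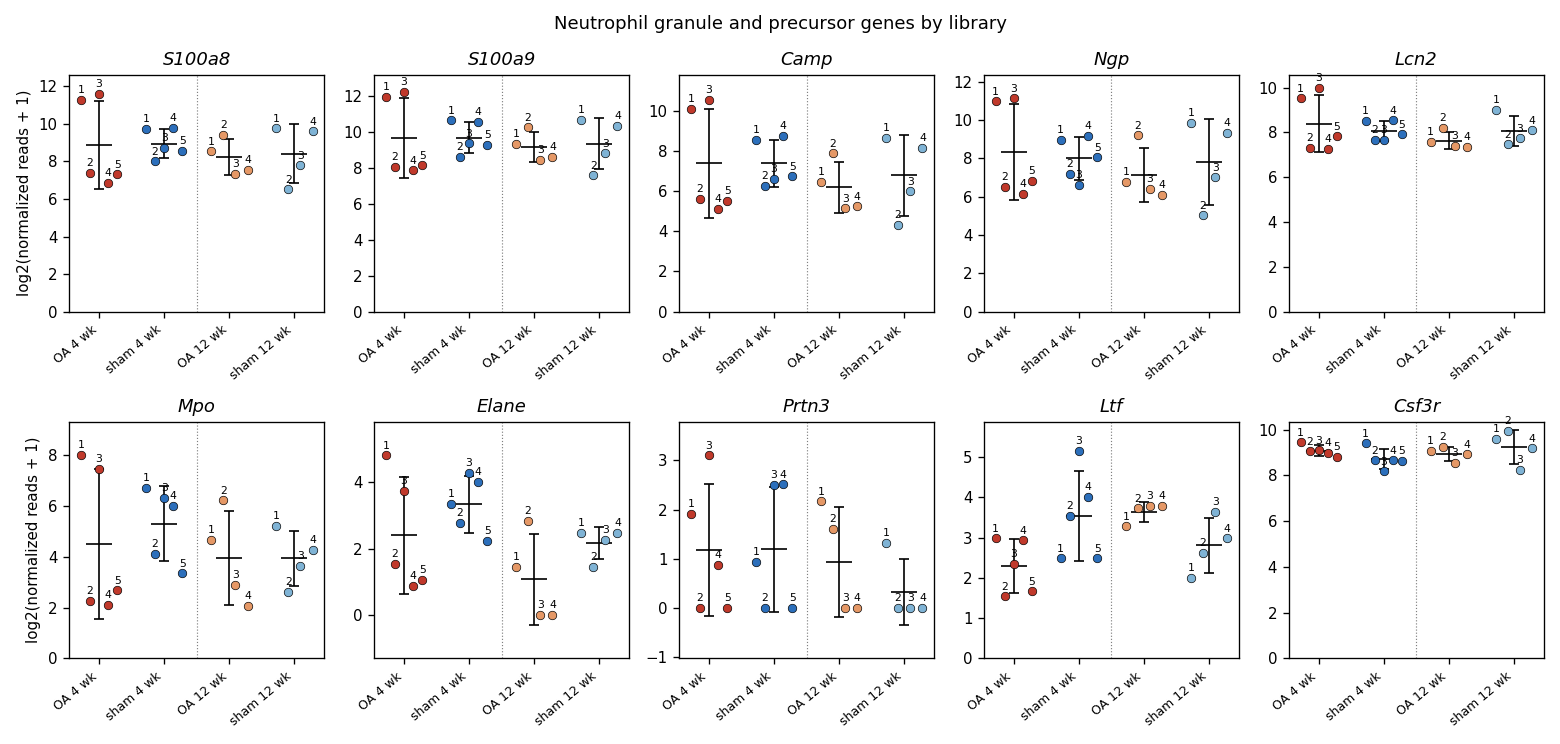
Level of each of the 10 genes in every library, as log2(normalized reads + 1) on the vertical axis, by surgery group and time point on the horizontal axis; points are libraries with their replicate numbers, and bars are the group mean and SD. The 4-week and 12-week groups were normalized separately, and OA and sham overlapped for every gene at both time points, with OA replicates 1 and 3 at 4 weeks highest for S100a8, S100a9, Camp, Ngp, Lcn2 and Mpo.

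At 12 weeks OA and sham also overlapped for all 10 genes. S100a8 measured 369, 688, 163 and 189 normalized reads in OA and 868, 90.2, 221 and 780.3 in sham, and here both the highest and the lowest library were sham. The log2 fold change was -0.20 (95% interval -1.76 to 1.36, limma adjusted p = 0.916; exact permutation p = 0.771). S100a9 measured 653, 1232, 354 and 397 in OA and 1642, 192, 454 and 1304 in sham, with a log2 fold change of -0.18 (-1.59 to 1.23, adjusted p = 0.915). The ratio of the pair again moved little, from 0.461 to 0.598, a 1.30-fold range.

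Camp at 12 weeks measured 87.3, 234, 34.3 and 36.5 normalized reads in OA and 399, 18.9, 62.3 and 283 in sham (log2 fold change -0.60, 95% interval -2.64 to 1.44, limma adjusted p = 0.803). Ngp measured 108, 593, 83.6 and 67.6 in OA and 937, 31.8, 128 and 646 in sham (-0.69, -2.95 to 1.57, adjusted p = 0.793). Lcn2 measured 189, 297, 169 and 162 in OA and 511, 175, 212 and 272 in sham (-0.43, -1.12 to 0.25, adjusted p = 0.562). Among sham libraries replicate 1 was highest and replicate 2 lowest for all 3 genes, and among OA libraries replicate 2 was highest.

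Ltf at 12 weeks stood at 8.73, 12.3, 12.9 and 12.9 normalized reads in OA and at 3.02, 5.16, 11.4 and 6.90 in sham. Only sham replicate 3 overlapped the OA range (log2 difference 0.84, exact permutation p = 0.0571, where the smallest p that 4 against 4 libraries allow is 0.0286). The difference had the opposite sign to that at 4 weeks, and in a fit of every gene with a read in both tables the OA effect at 12 weeks minus that at 4 weeks was 1.82 (95% interval 0.52 to 3.12, unadjusted p = 0.00842, limma adjusted p = 0.686). An unadjusted p under 0.05 was found for 6.8% of all genes in that fit, 1544 with a positive difference, like Ltf, and 354 with a negative one. Mpo measured 24.4, 73.5, 6.43 and 3.22 in OA and 36.3, 5.16, 11.4 and 18.4 in sham (log2 fold change 0.03, 95% interval -1.85 to 1.91, limma adjusted p = 0.990). Elane and Prtn3 were at or near the level of 3 reads per library (2.27 to 3.82 normalized reads). Elane reached 6.13 in OA, with 2 OA libraries at 0, and 4.60 in sham, and Prtn3 reached 3.49 in OA and 1.51 in sham, with 2 OA and 3 sham libraries at 0 (exact permutation p = 0.257 for Elane and 0.429 for Prtn3).

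Csf3r at 12 weeks measured 535, 608, 370.0 and 480.5 normalized reads in OA and 776, 991, 301 and 580.3 in sham (log2 fold change -0.30, 95% interval -0.997 to 0.39, limma adjusted p = 0.695). Sham replicate 2, which had the least S100a8, S100a9, Camp and Ngp of the 8 libraries, had the most Csf3r.

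Across the tested members none was called at either time point, a call being an adjusted p under 0.05 with a log2 fold change of 0.5 or more in either direction. With limma 0 of 7 tested members were called at 4 weeks and 0 of 7 at 12 weeks, where 0% of all 14861 and 14666 genes tested were called. With edgeR on the recovered reads the members called were again 0, against 0% of all genes at both time points, and with DESeq2 they were 0 against 0.195% of all genes at 4 weeks and 0.675% at 12 weeks. No tested member had an unadjusted limma p under 0.05, which 7.92% of all genes had at 4 weeks and 12.4% at 12 weeks. No member had groups that did not overlap, as 1.87% of all genes had at 4 weeks and 6.29% at 12 weeks. The median log2 fold change of the tested members was 0.00032 at 4 weeks, against 0.03 over all genes, and -0.30 at 12 weeks, against -0.01. Elane, Prtn3 and Ltf did not reach the filter at either time point. In the limma fit of every gene with a read their adjusted p ran from 0.571 to 0.996 at 4 weeks and from 0.527 to 0.772 at 12 weeks, where none had an unadjusted p under 0.05, against 9.72% of all genes. The smallest p that the exact permutation test allows at 4 weeks is 0.00794.

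The OA effect was also compared between the time points in 1 fit of all 18 libraries. No tested member was called, against 0% of 14420 genes (3% at an unadjusted p under 0.05, which no tested member had). The differences between the log2 fold changes, 12 weeks minus 4 weeks, ran from -0.99 for Ngp (95% interval -4.27 to 2.30) to 0.80 for Mpo (-2.59 to 4.18), and Csf3r had the narrowest interval, at -0.64 (-1.42 to 0.14). Adjusted p ran from 0.962 to 0.995 (limma). With intervals this wide, differences of several-fold in either direction would not have been detectable for S100a8, S100a9, Camp, Ngp and Mpo.

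**Figure D2:**
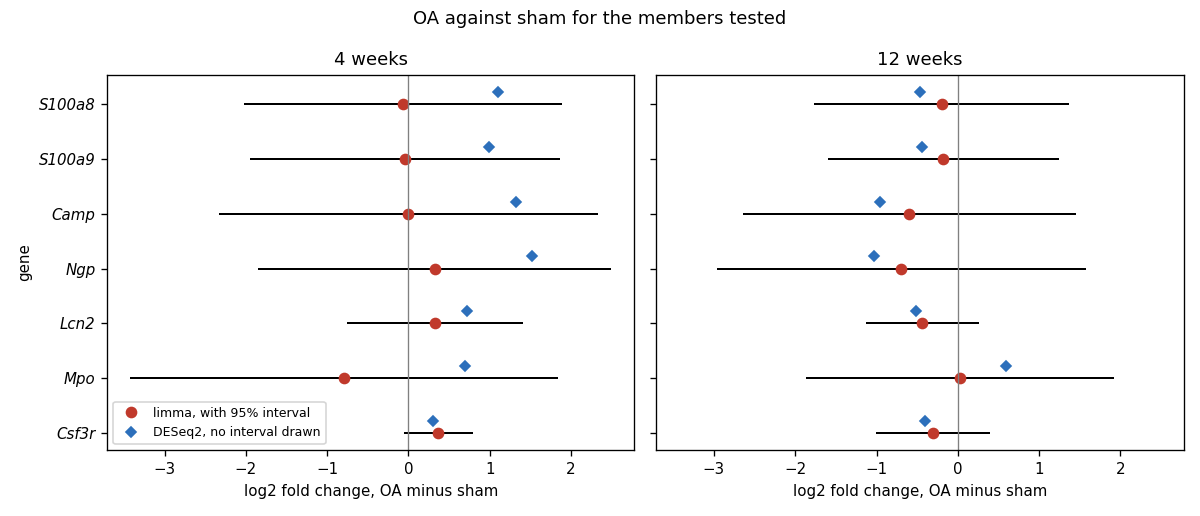
Log2 fold change of OA against sham (horizontal axis) for the 7 members tested at 4 weeks (left) and 12 weeks (right); circles are limma estimates with 95% intervals, and diamonds are DESeq2 estimates from the recovered reads without an interval. All limma intervals include 0, and at 4 weeks S100a8, S100a9 and Mpo lie below 0 by limma and above 0 by DESeq2.

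The spread between libraries of the same group was large for most members. The within-group SD on the log2 scale at 4 weeks was 2.34 for Mpo, 2.08 for Camp, 1.94 for Ngp, 1.74 for S100a8 and 1.70 for S100a9, where the median over all tested genes was 0.216. Only 4 of the 14861 tested genes had a larger SD than Mpo, 8 a larger one than Camp and 22 a larger one than S100a9. The SD of Mpo includes OA libraries with as few as 4 reads at 4 weeks and 3 at 12 weeks. At 12 weeks the order of the genes differed. Ngp had an SD of 1.87, exceeded by 4 of 14666 genes, followed by Camp at 1.68, Mpo at 1.52, S100a8 at 1.29 and S100a9 at 1.17, against a median of 0.170. Lcn2 varied less (0.96 at 4 weeks and 0.55 at 12 weeks). Csf3r had an SD of 0.35 at 4 weeks, which 3579 genes exceeded. At 12 weeks its SD was 0.57, above that of Lcn2, and 689 of 14666 genes exceeded it.

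Deviations from the group mean were correlated among most of the granule genes and calprotectin. Over the 18 libraries, after the mean of each surgery and time point group was subtracted, Pearson's r among S100a8, S100a9, Camp, Ngp, Lcn2 and Mpo ran from 0.838 to 0.997 over the 15 pairs, with a median of 0.951. These values describe libraries that share their depth and size factor across genes, and the 4-week OA libraries carry much of the range. Elane, at low counts, had an r of 0.764 to 0.950 with those 6 genes, and Prtn3 of 0.575 to 0.804. The r of Csf3r with them ran from 0.274 to 0.338, and that of Ltf from -0.063 to 0.226. Both genes thus stood outside the shared profile, and the r between Ltf and Csf3r was -0.50. Ltf was under the filter at both time points, with 2 to 15 reads per library at 4 weeks and 4 to 12 at 12 weeks. Its r is therefore limited by counting error.

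**Figure D3:**
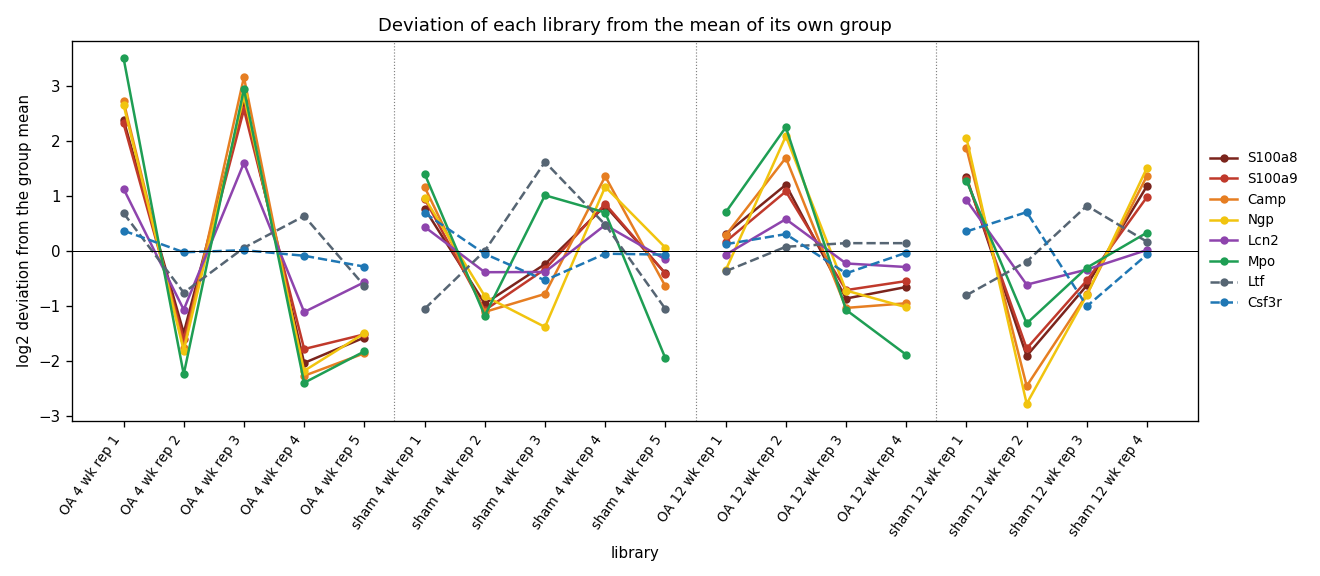
Deviation of each library (horizontal axis, by group and replicate) from the mean of its own group, in log2 units (vertical axis), for 8 of the genes; solid lines are calprotectin, granule and peroxidase genes, dashed lines are Ltf and Csf3r, and dotted verticals part the 4 groups. The solid lines follow each other in most libraries, with exceptions such as sham replicate 3 at 4 weeks, where Mpo lies 1.02 and Ngp -1.38 from the group mean, and with OA replicates 1 and 3 at 4 weeks above 1 for all 6 genes, while Csf3r stays within about 1 log2 unit of its group mean.

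**Figure D4:**
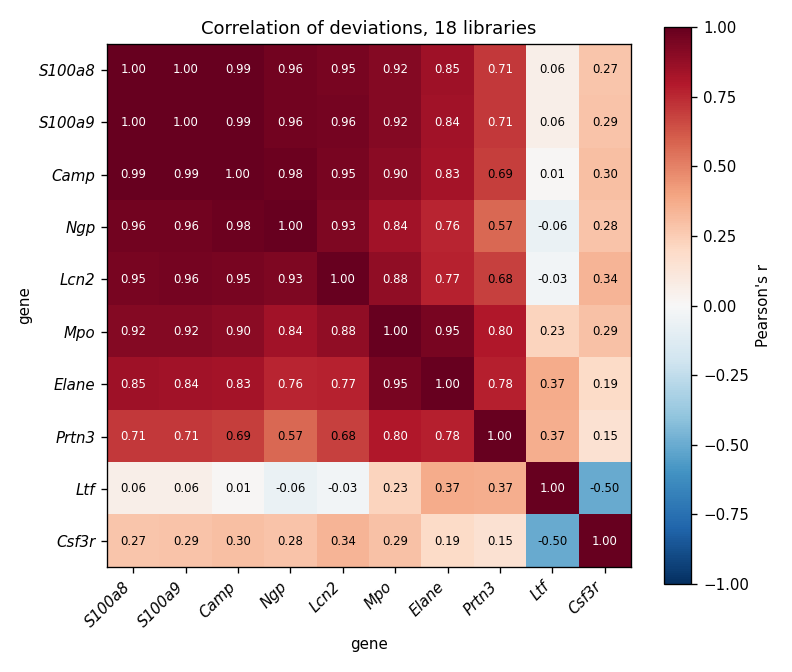
Pearson's r between the group-centred log2 levels of each pair of the 10 genes over 18 libraries, from -1 (blue) to 1 (red), with the value in each cell. S100a8, S100a9, Camp, Ngp, Lcn2 and Mpo form a block of values from 0.84 to 1.00, and Ltf and Csf3r stand apart from it.

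The genes most like the members in this sense were found among 14420 genes. The 5 most like S100a8 were S100a9 (r = 0.997, Spearman's rho = 0.996), Camp (r = 0.993), Mmp8, the neutrophil collagenase (r = 0.991), Pglyrp1, a peptidoglycan recognition protein (r = 0.972), and Hp, haptoglobin (r = 0.968, rho = 0.922). Without the libraries farthest from the median of S100a8, OA replicates 1 and 3 at 4 weeks, these r were 0.994, 0.991, 0.987, 0.951 and 0.944. Those most like Camp were S100a8, S100a9, Mmp8 (r = 0.986), Defa5 and Ngp (both r = 0.980). Among those most like Mpo were a gene model named AABR07034362.2 (r = 0.953), the defensin Np4 (r = 0.943), the cysteine protease inhibitor Stfa2 (r = 0.930) and Defa5 (r = 0.929). Csf3r had other neighbours, namely Cd84, a receptor of the SLAM family (r = 0.954), the tetraspanin Cd53 (r = 0.934), Ptger2, a prostaglandin E2 receptor (r = 0.932), Hmgb2, a chromatin protein (r = 0.930), and Ciita, the regulator of MHC class II genes (r = 0.905). These were taken from the highest of 57676 correlations.

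The companion genes differed in how widely they ranged. Mmp8 measured 1407, 78.1, 1529, 56.5 and 75.9 normalized reads in OA and 454, 109, 158, 335 and 178 in sham at 4 weeks, and 204, 285, 47.2 and 82.6 in OA and 397, 29.2, 92.9 and 371 in sham at 12 weeks. Defa5, an alpha defensin, measured 969, 18.1, 1195, 22.4 and 33.6 in OA and 467, 61.1, 62.7, 465 and 59.8 in sham at 4 weeks. Alpha defensins are near-identical copies, so how reads were divided between Defa5, Np4 and RatNP-3b is uncertain, but the summed level of the 9 alpha defensin genes found ran from 70.5 to 3792 normalized reads in OA and from 183 to 1415 in sham at 4 weeks. Cxcr2, the chemokine receptor of mature neutrophils, spanned 41.8 to 196 normalized reads at 4 weeks and had an r of 0.795 with S100a8. Mmp9, gelatinase B, spanned 182 to 1392 and had an r of 0.745. The formyl peptide receptor Fpr1, picked after its values were seen, had an r of 0.950. Its low end at 4 weeks rests on 1, 1 and 2 reads in OA replicates 2, 4 and 5 and on 1 read in sham replicate 2.

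**Figure D5:**
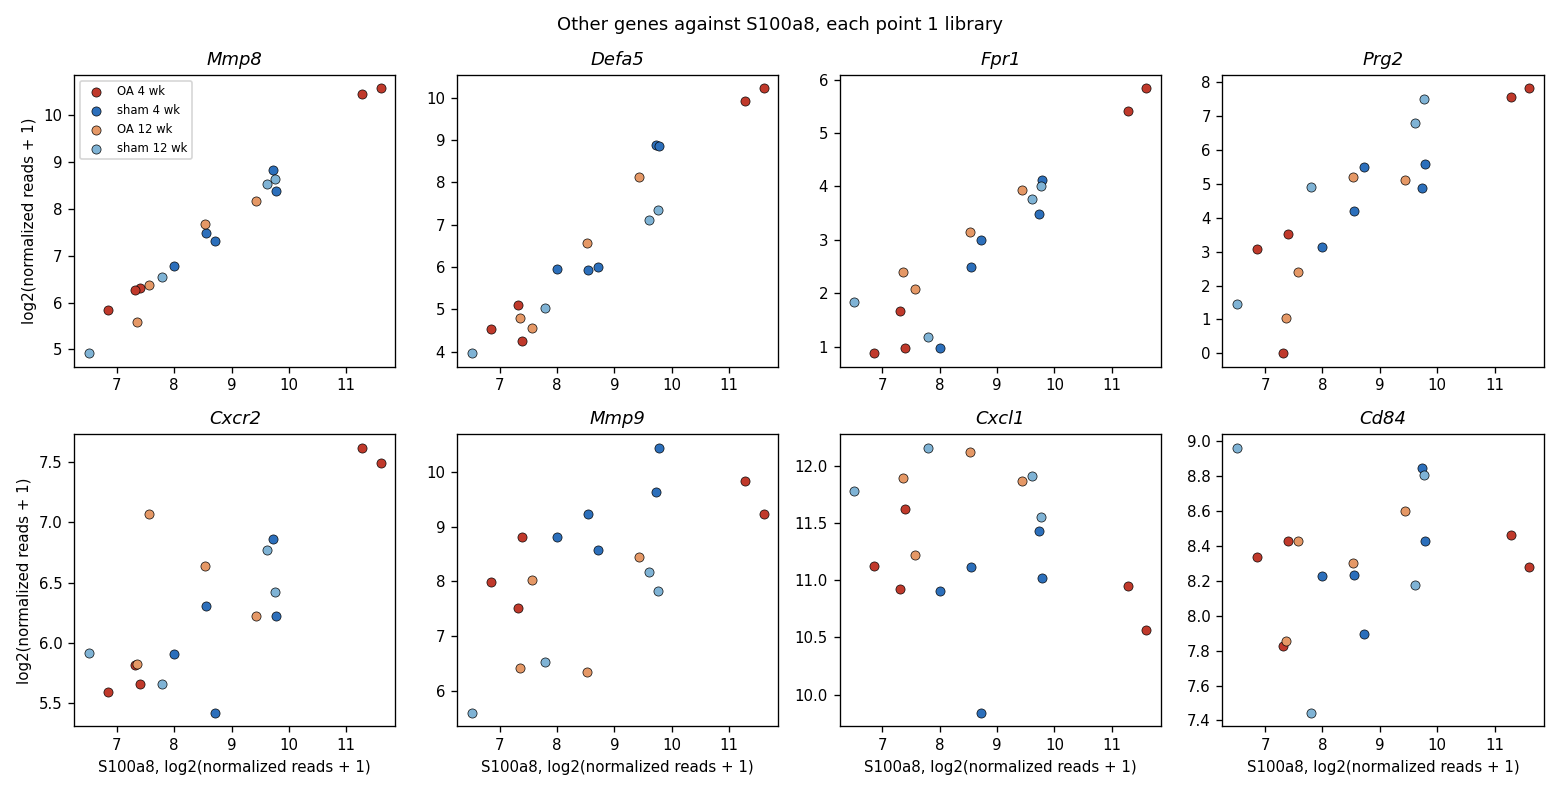
Level of 8 other genes (vertical axes) against that of S100a8 (horizontal axes), both as log2(normalized reads + 1), with 1 point per library and colours for the 4 groups. Mmp8, Defa5, Fpr1 and Prg2 climb with S100a8, Cxcr2 and Mmp9 do so more loosely, and Cxcl1 and Cd84 show no such climb. The lowest Fpr1 points rest on 1 read each.

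Genes of eosinophil granules were chosen here after their values were seen, so their likeness to S100a8 is a description. The r with S100a8 was 0.956 for Epx, the eosinophil peroxidase, 0.898 for Prg2 and 0.855 for Prg3, which encode eosinophil major basic proteins. The mast cell carboxypeptidase Cpa3 had an r of 0.016. Macrophage genes had an r of 0.309 (Csf1r), 0.150 (Cd68) and 0.343 (Adgre1), and the haemoglobin gene Hbb, a measure of red cell RNA, had an r of -0.18. With Csf3r these macrophage genes had an r of 0.362 (Csf1r), 0.727 (Cd68) and 0.518 (Adgre1), so the level of Csf3r cannot be read as that of neutrophils alone. The part of eosinophils, red cells or any other cell type in the levels of the members was not tested.

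Primary granule and promyelocyte genes were tested for 5 of 10 genes found at 4 weeks and 4 of 10 at 12 weeks, and 0 were called. Calls here and in the lists that follow are those of limma, which called 0% of all genes at both time points. An unadjusted limma p under 0.05 was found for 7.92% of all genes at 4 weeks and 12.4% at 12 weeks, and for 0 genes of this list. The list includes Epx, the eosinophil peroxidase, and its median log2 fold change was 0.08 at 4 weeks and -0.26 at 12 weeks. The genes with the largest differences were Mpo, Epx (0.31) and Cebpe, a granulocyte transcription factor (0.27), at 4 weeks, and Epx (-1.36, adjusted p = 0.438), Hdc, histidine decarboxylase (-0.53), and Mpo at 12 weeks (limma). Ctsg, cathepsin G, stood at 0 to 22.9 normalized reads at 4 weeks and at 0 to 8.31 at 12 weeks, under the filter.

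Secondary and tertiary granule genes were tested for 17 and 16 of 18, with 0 called and medians of 0.02 at 4 weeks and -0.24 at 12 weeks. The number with an unadjusted limma p under 0.05 was 0 at 4 weeks and 1 at 12 weeks. Mmp9 (-0.66, adjusted p = 0.698), Arg1, arginase 1 (-0.61), and Hp (0.56) differed most at 4 weeks, and Ngp, Olfm4, olfactomedin 4 (-0.63), and Pglyrp1 (-0.63) at 12 weeks. At the 12-week time point Mmp9 stood at 0.28, with 80.3 to 346 normalized reads in OA and 47.3 to 286 in sham. Mmp8 had a log2 fold change of 0.13 at 4 weeks and -0.21 at 12 weeks. Defensins were tested for 4 and 3 of 9 genes, with 0 called, 0 at an unadjusted limma p under 0.05, and medians of -0.30 and -0.13. Np4 (-0.31 at 4 weeks, -0.13 at 12 weeks), Defa5 (-0.31 and 0.15) and RatNP-3b (-0.29 and -0.15) all had adjusted p of at least 0.949 (limma).

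Genes of mature neutrophils were tested for 22 and 21 of 26, with 0 called and medians of 0.10 and -0.00014. The number with an unadjusted limma p under 0.05 was 1 at 4 weeks and 2 at 12 weeks. Which cells in the libraries gave the levels of the genes in this and the other lists was not tested. The largest differences beyond Mmp9 were those of the chemokine receptor Cxcr1 (0.50) and the receptor Trem3 (0.42) at 4 weeks, and of the formyl peptide receptor Fpr2 (-0.89), Stfa2 (0.73) and Hcar2, the niacin receptor (-0.45), at 12 weeks. None of these had an adjusted p under 0.426 (limma). Cxcr2 had a log2 fold change of 0.29 at 4 weeks and 0.25 at 12 weeks.

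Among signals that draw neutrophils, Cxcl1 and Cxcl2, chemokines that bind Cxcr2, had an r of -0.16 and -0.066 with S100a8, and Csf3, the ligand of Csf3r, stood at 3.43 to 12.9 normalized reads at 4 weeks and at 9.65 to 42.0 at 12 weeks. The log2 fold change of Cxcl1 was 0.18 at 4 weeks and -0.08 at 12 weeks, and that of Cxcl2 was 0.16 and -0.02. Of the 18 genes in this list 12 and 13 were tested, 0 were called, and the medians were 0.17 and -0.02. The number with an unadjusted limma p under 0.05 was 2 at each time point, all higher in OA. The chemokine Cxcl3 (-0.78) and the receptor Cxcr4 (0.41) differed most at 4 weeks together with Lta4h, the hydrolase that makes leukotriene B4. Lta4h measured 1517 to 1848 normalized reads in OA and 1176 to 1424 in sham at 4 weeks, without overlap (0.36, limma adjusted p = 0.389), and 1654 to 2121 against 1299.9 to 1805 at 12 weeks (0.30, adjusted p = 0.348). At 12 weeks the others were Il1a (0.56) and C5ar1, the complement C5a receptor, at 3238 to 3701 in OA and 2256 to 3149.9 in sham, also without overlap (0.36, adjusted p = 0.278). Groups did not overlap for 1 of 12 tested genes of this list at 4 weeks (1.87% of all genes) and 1 of 13 at 12 weeks (6.29% of all genes).

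Receptors of S100a8 and S100a9 were all tested (5 of 5), with 0 called and medians of 0.12 and 0.05. At 4 weeks 3 of 5 had an unadjusted limma p under 0.05, 2 higher and 1 lower in OA, against 7.92% of all genes. At 12 weeks 0 had one, against 12.4% of all genes. Ager, the receptor for advanced glycation end products, measured 82.9 to 112 normalized reads in OA and 111 to 169 in sham at 4 weeks (log2 fold change -0.42, limma adjusted p = 0.544) and -0.27 at 12 weeks. Tlr4, the endotoxin receptor, had 0.29 at 4 weeks (adjusted p = 0.607) and 0.14 at 12 weeks, Cd33 had 0.26 at 4 weeks and Mcam -0.21 at 12 weeks. Partners of the proteases and of lipocalin were tested for 10 of 11, with 0 called, 0 at an unadjusted limma p under 0.05, and medians of 0.05 and 0.10. Lrp2, the endocytic receptor megalin (-1.03), Lrp1 (0.20) and Serpinb1a, an inhibitor of neutrophil proteases (0.20), differed most at 4 weeks, and Serpina1, alpha-1 antitrypsin (0.48), Cst3, cystatin C (0.23), and Tfrc, the transferrin receptor (-0.23), at 12 weeks. Slc22a17, a receptor for lipocalin 2, had 0.17 and 0.12.

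Granulocyte transcription factors were tested for 10 and 9 of 11, with 0 called and medians of 0.11 and 0.01. At 4 weeks 3 of 10 had an unadjusted limma p under 0.05, 2 higher and 1 lower in OA, against 7.92% of all genes. At 12 weeks 1 of 9 had one, against 12.4% of all genes. At 4 weeks Lef1 (-0.69), Cebpb (0.48) and Myb (-0.47) differed most, with adjusted p of 0.616, 0.611 and 0.819 (limma). At 12 weeks these were Cebpa (0.40, adjusted p = 0.264), Lef1 (0.32) and Cebpd (-0.23). Cebpa, which is needed for granulocyte commitment and is also expressed in macrophages, measured 1521 to 1972 normalized reads in OA and 1266 to 1347 in sham at 12 weeks, without overlap. It was 1 of 9 tested genes of this list without overlap at 12 weeks, against 6.29% of all genes.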

How the data were processed

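Bulk RNA-seq was made from CD11b/c bead-selected synovial cells, each library a pool of 4 rats at 4 weeks or 3 at 12 weeks. Per the study's methods and processing notes, the authors trimmed reads with fastp 0.20.0, aligned them with STAR 2.7.6a to Rnor_6.0, removed duplicates, counted genes with featureCounts 2.0.0 (the strand setting is not given in the sources used here) and normalized them with DESeq2 1.24.0, separately for each time point. The deposited values are a signal: reads divided by size factors. The deposited tables also hold the authors' own comparisons (fold changes and p-values), which were not used.

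Dividing each library's values by the step of 1 read gave whole reads (within 0.1) for 100% of values. The main test was limma 3.58.1 (trend) on log2(normalized reads + 1) for genes with a mean of at least 10, with Benjamini-Hochberg adjustment over all genes tested. A call needed a log2 fold change of at least 0.5 and an adjusted p under 0.05. edgeR 4.0.16 (quasi-likelihood) and DESeq2 1.42.0 were run on the recovered reads. The 2 time points were compared with limma on log2 CPM (TMM, prior count 2). Exact permutation tests were 2-sided, on log2 values, and unadjusted. Fold changes on the log2(value + 1) scale understate those of low genes. Scripts were tested on simulated data. Precision is limited by depth, and a level of 3 reads covers counting error only.

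The members and gene lists were chosen with earlier results of these data known. All members were named, and of the lists the genes called by any tool, the 3 with the largest log2 fold change at each time point, genes that act directly with a member, and the 5 genes most like S100a8, Camp, Mpo and Csf3r. A gene that this rule names is not reported here. Other settings tried were the pseudocount, the filter, TMM scaling, sample quality weights, a replicate block and leaving out each library.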

Additional observations from a re-analysis of the deposited data

Results flagged for a closer look

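In 40 groups of 4 or 5 libraries (10 genes in 4 groups) the highest and lowest library were set against the others, and chance marks about 1 group in 20. At 12 weeks Prtn3 stood at 1.51 normalized reads in sham replicate 1, from 2 reads, and at 0 in the other sham libraries. Ltf was lowest in OA replicate 1 at 12 weeks, at 8.73 normalized reads, from 10 reads against 12 in each other OA library. On the log2 scale the gap to the nearest OA library was 0.872 of the group's range, a gap that rests on few reads.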

How the results depend on the processing

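No member was called at either time point, or between the time points, under any setting run. Most settings called 0 or 1 of all genes tested, so the counts of calls had little room to move. The exceptions were DESeq2, with 29 of 14861 genes at 4 weeks and 99 of 14666 at 12 weeks, and limma at 12 weeks without sham replicate 3, with 81 of 14663. Elane, Prtn3 and Ltf were not tested in most settings. Of 82 counts compared, 80 stayed the same and 2 moved, the number of members with an exact permutation p under 0.05 at 4 weeks running from 0 to 2 as single libraries were left out (Csf3r and Ltf without sham replicate 1, Ltf without sham replicate 5). Of 430 log2 fold changes of members, 367 kept their sign and 63 changed it, none of them called.

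At 4 weeks edgeR gave 1.11 for S100a8, 0.99 for S100a9 and 0.79 for Mpo, and DESeq2 gave 1.10, 1.00 and 0.70, where limma gave values below 0. Camp was -0.0048 with a pseudocount of 0.5, -0.025 with TMM scaling and -0.31 with sample quality weights, and Ngp was -0.17 with sample quality weights. At 12 weeks Mpo was -0.15 with sample quality weights. The difference between time points for Mpo was -0.22 with edgeR and -0.10 with DESeq2. The cause was not tested.

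When single libraries were left out, the log2 fold change at 4 weeks ran from -0.74 to 0.44 for S100a8, -0.68 to 0.41 for S100a9, -0.79 to 0.57 for Camp, -0.38 to 0.87 for Ngp, -1.67 to -0.19 for Mpo, 0.24 to 0.54 for Csf3r and -0.073 to 0.61 for Lcn2. At 12 weeks it ran from -0.83 to 0.25 for S100a8, -0.77 to 0.26 for S100a9, -1.41 to 0.028 for Camp, -0.73 to 0.66 for Mpo, -1.62 to -0.0075 for Ngp, -0.64 to -0.13 for Lcn2 and -0.64 to -0.068 for Csf3r. The difference between time points ran from -0.74 to 0.57 for S100a8, -0.70 to 0.53 for S100a9, -1.38 to 0.21 for Camp, 0.089 to 1.64 for Mpo, -1.90 to -0.28 for Ngp, -1.002 to -0.33 for Lcn2 and -0.97 to -0.40 for Csf3r. A single library thus moved most of these values by over 1.5 times.

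The replicate numbers were not taken as pairs of OA and sham libraries, which came from different rats. The correlation of their deviations ran from -0.131 to 0.080 at 4 weeks and from -0.026 to 0.298 at 12 weeks. With the replicate block 0 members were called, and 1 gene in all at 4 weeks against 0 without it. At 12 weeks 0 genes were called with the block. There 2185 genes had an unadjusted limma p under 0.05 with it and 1814 without it. Whether libraries of the same replicate number were handled together was not tested.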
